A study of Mus musculus with 8 samples.

Results

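The small proline-rich genes Sprr1a, Sprr1b, Sprr2h, Sprr2k and Sprr3 were followed over 8 arrays of mouse embryonic fibroblasts (MEFs). They are 5 of the 22180 genes with a probe set of their own. The list was chosen by the measured log2 signals of Sprr1a and Sprr2k, which had moved in opposite directions in the cells with mutant STING, and each gene was read from the probe set with the highest mean among those mapped to its symbol alone, of which each had 1. The differences between lines that chose them are therefore given as a description with no test, and those of hSTING against vector cells as well, since they use the same vector arrays. Another 7 Sprr genes had a probe set of their own and are given for comparison.

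All cells were MEFs without the endogenous gene for STING (STING-/-), the adaptor that passes on the signal of cytosolic DNA from cGAS. They had been reconstituted with the STING variant R284S, with the mutant N154S, which the design text links to the autoinflammatory disease SAVI, with human STING (hSTING), or with the empty vector pBabe. Each of these 4 lines was measured 9 h after transfection of double-stranded DNA (dsDNA), carried by Lipofectamine 2000, and as a control, with 1 array per line and treatment and no replicates. The labels call the cells primary MEFs; each line is a cell population of its own, so a difference between lines holds any other difference between those populations.

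Small proline-rich proteins are short proteins that transglutaminases join to other proteins in the cornified envelope, the tough layer under the membrane of terminally differentiated keratinocytes. Their genes lie side by side in the epidermal differentiation complex, on chromosome 3 of the mouse, next to the genes for involucrin, loricrin and the S100 proteins. Outside skin, Sprr1a is known as a gene switched on by injury and stress, in regenerating neurons and in heart muscle under gp130 cytokines, and AP-1 transcription factors are known to act on the promoters of the family. Fibroblasts are not a usual place of cornified envelope formation.

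Values are deposited log2 array signals. The median over all genes with a symbol was 4.42 to 4.47 on the 8 arrays, and a signal below it is called dim here. The brightest probe set read between 13.11 and 13.22. Sprr1a was at or above the median on 8 of 8 arrays, Sprr2k on 6, Sprr2h on 1, and Sprr1b and Sprr3 on 0. Sprr2 genes are close copies of each other, so their probes may read more than the named gene.

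Sprr1a was bright in the cells with either mutant and much lower in vector cells. Its signal was 11.13 with dsDNA and 11.11 in control cells of the R284S line, 9.76 and 9.18 in the N154S line, 9.54 and 6.87 in the hSTING line, and 6.30 and 6.48 in the vector line. The 4 mutant arrays and the hSTING array with dsDNA thus lay between 9.18 and 11.13. The hSTING control and both vector arrays lay between 6.30 and 6.87. This split was drawn from the values themselves, and the share of all genes split alike was not counted. In control cells the signal was 24.8-fold higher in R284S, 6.50-fold higher in N154S and 1.31-fold higher in hSTING cells than in vector cells. With dsDNA the gaps to vector cells were 28.4-fold for R284S, 11.004-fold for N154S and 9.45-fold for hSTING. The control difference of R284S from vector was number 16 from the top among the 22180 genes, that of N154S number 64 and that of hSTING number 1048. With dsDNA these ranks were 7, 53 and 77.

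Sprr2k, a member of the Sprr2 branch of the family, ran the other way. Its signal was 4.27 with dsDNA and 4.53 in control R284S cells, 4.03 and 4.54 in N154S cells, 5.33 and 6.18 in hSTING cells, and 6.68 and 7.28 in vector cells. The 4 lines did not overlap except for the mutants, whose values interleaved, and both mutants with dsDNA were dim. The share of all genes with lines set apart in this way was not counted. In control cells Sprr2k was 6.73-fold lower in R284S and 6.68-fold lower in N154S than in vector cells, and the 2 mutants differed by -0.01 on the log2 scale. The hSTING control array was 2.14-fold lower than the vector control array. With dsDNA it was at least 4.66-fold lower in R284S and at least 4.63-fold lower in N154S, each against the array median in place of the dim signal, and 2.55-fold lower in hSTING cells. Among all genes the control difference of N154S from vector was number 1 from the bottom, that of R284S number 4 and that of hSTING number 13.

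**Figure D1:**
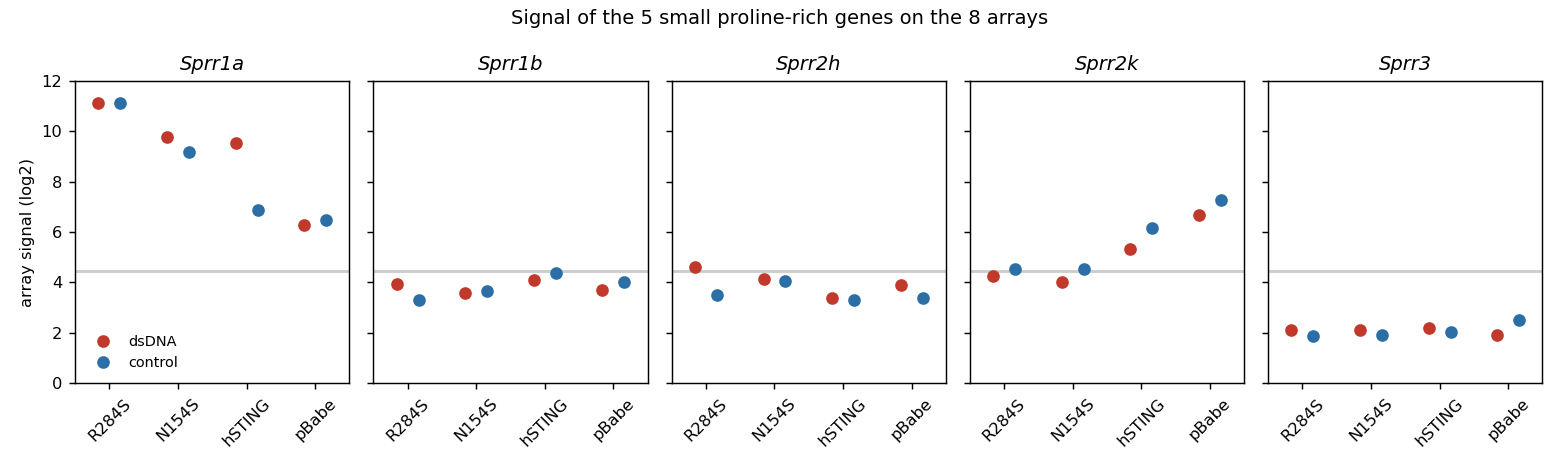
Log2 array signal (vertical axis) of the 5 genes in the 4 lines (horizontal axis), with the dsDNA array in red left of the control array in blue, 1 point per array. The grey band is the range of the array medians, 4.42 to 4.47; Sprr1a falls toward the vector line, with 11.11 in R284S and 6.48 in vector control cells, while Sprr2k climbs, with 4.53 and 7.28, and the other 3 genes lie near or under the band.

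A difference was counted when it reached 2-fold and the brighter of the 2 signals was not dim. By that count, Sprr1a was higher and Sprr2k lower in both mutants in both treatments, and none of the other 3 genes passed. That is 1 of 5 members higher and 1 of 5 lower in each of these comparisons. Over all genes the shares were 1.15% higher and 0.721% lower for R284S against vector control cells, and 1.01% and 0.406% for N154S. With dsDNA they were 1.13% and 0.848% for R284S, and 1.57% and 0.884% for N154S. In hSTING against vector control cells Sprr2k was the 1 member past the fold, where 0.415% of genes were higher and 0.018% lower, and with dsDNA both Sprr1a and Sprr2k were, where the shares were 2.16% and 0.721%. The choice of the genes fixed these counts, so nothing is read from them.

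The mutants also differed from hSTING cells of the same treatment. Sprr1a was 4.96-fold higher in N154S than in hSTING control cells, but with dsDNA the N154S line read 9.76 and the hSTING line 9.54, a difference of 0.22. R284S kept a higher Sprr1a signal with dsDNA, 3.01-fold above hSTING and 2.59-fold above N154S cells. For Sprr2k the log2 differences from hSTING control cells were -1.65 in R284S and -1.64 in N154S. With dsDNA they were -1.06 and -1.30, or at least 0.87 and 0.86 lower when the dim mutant signals are replaced by the array median.

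The other 3 members stayed low in every line. Sprr1b, a close relative of Sprr1a, read 3.96 and 3.29 in R284S, 3.58 and 3.65 in N154S, 4.09 and 4.38 in hSTING, and 3.72 and 4.02 in vector cells, dsDNA array before control array. Sprr2h, another gene of the Sprr2 branch, read 4.60 and 3.51 in R284S, 4.12 and 4.06 in N154S, 3.40 and 3.32 in hSTING, and 3.91 and 3.37 in vector cells. Sprr3, which in skin and mucosa marks stratified epithelia such as the oesophagus, read between 1.87 and 2.50 on the 8 arrays. Sprr1b was highest on both hSTING arrays, by a small margin, Sprr2h was lowest in hSTING control cells and highest in R284S cells with dsDNA, and the lines overlapped for Sprr3. Against vector cells of the same treatment the mutants differed by -0.73 to 0.69 over these 3 genes. In the RefSeq gene order of chromosome 3, Sprr2k, Sprr1b, Sprr3 and Sprr1a follow each other. The 2 genes with opposite shifts thus flank 2 that were dim on all arrays, in which a fall would have been hard to see.

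Of the 7 other Sprr genes, Sprr2e alone was past the 2-fold mark in a mutant against vector control cells, against the same shares of all genes. It read 4.76 with dsDNA and 4.55 in control R284S cells, 3.80 and 3.55 in N154S, 3.48 and 3.37 in hSTING, and 2.96 and 3.30 in vector cells. Both R284S arrays were above the other 6, but the vector signal was dim, so the bounds were 1.07-fold in control cells and 1.27-fold with dsDNA. Sprr2b read between 4.36 and 5.33, with the lines mixed. The remaining genes, Sprr2d, Sprr2f, Sprr2g, Sprr2j-ps and Sprr4, were dim on all 8 arrays. The list of 7 had a median difference from vector control cells of 0.18 in R284S and 0.04 in N154S, beside 0.00 over all genes in both.

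**Figure D2:**
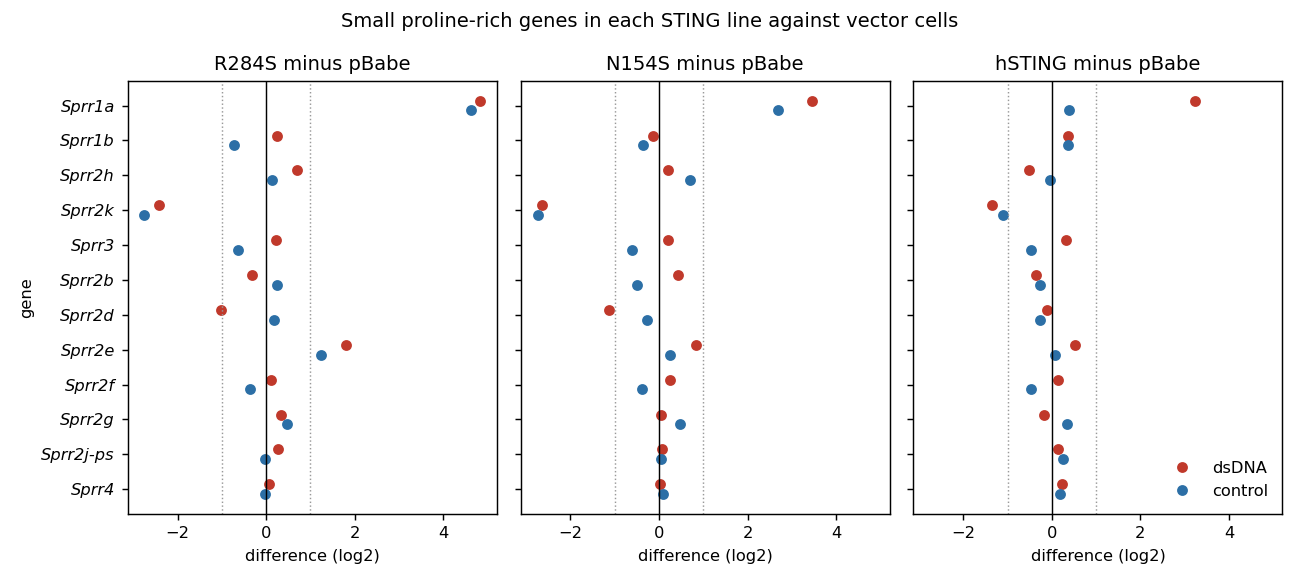
Difference from vector cells of the same treatment (horizontal axis, log2) for the 12 Sprr genes with a probe set of their own (vertical axis), in R284S, N154S and hSTING cells, with dsDNA arrays in red above control arrays in blue and 1 point per pair of arrays. Dotted lines mark 2-fold; Sprr1a stands to the right at 4.63 in R284S and 2.70 in N154S control cells, Sprr2k to the left at -2.75 and -2.74, and Sprr2e passes 2-fold in R284S, at 1.25 in control cells.

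The stretches of DNA before the starts of Sprr1a and Sprr2k, the genes with the opposite shifts, and of Sprr2h, whose window is a close copy of that of Sprr2k, are shown to set the letters of the 3 genes side by side. Sprr2h was dim on 7 of 8 arrays, both vector arrays included, so a fall in it like that of Sprr2k would have been hard to see. Each line holds the 250 bases before the annotated start, 5′ to 3′ on the gene's strand, from RefSeq's promoter table for GRCm38.p6, at chr3:92485882-92486131 on the minus strand for Sprr1a, chr3:92432332-92432581 on the plus strand for Sprr2k and chr3:92385435-92385684 on the plus strand for Sprr2h. Capitals mark matches to the AP-1 motif TGANTCA, the octamer ATTTGCAT and the TATA box TATAAA.
Sprr1a: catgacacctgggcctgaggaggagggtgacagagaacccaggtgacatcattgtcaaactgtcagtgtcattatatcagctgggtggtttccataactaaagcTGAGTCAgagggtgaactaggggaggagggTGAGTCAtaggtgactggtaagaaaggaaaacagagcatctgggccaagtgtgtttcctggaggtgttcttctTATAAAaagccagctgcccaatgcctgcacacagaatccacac
Sprr2k: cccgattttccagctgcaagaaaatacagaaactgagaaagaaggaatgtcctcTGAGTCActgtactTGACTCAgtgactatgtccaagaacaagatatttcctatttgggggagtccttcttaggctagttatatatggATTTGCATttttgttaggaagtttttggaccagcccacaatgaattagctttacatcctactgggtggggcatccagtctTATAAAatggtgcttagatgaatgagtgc
Sprr2h: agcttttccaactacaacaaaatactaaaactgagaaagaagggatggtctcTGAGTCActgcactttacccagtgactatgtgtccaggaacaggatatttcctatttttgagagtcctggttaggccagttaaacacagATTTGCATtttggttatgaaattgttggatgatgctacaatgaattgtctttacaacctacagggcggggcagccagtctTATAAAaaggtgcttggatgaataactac

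Sprr1a and Sprr2k each held 2 AP-1 matches in this window, Sprr2h and Sprr1b 1 and Sprr3 0. Counting from the base before the start, the matches of Sprr1a began at -146 and -116, those of Sprr2k at -196 and -182, and that of Sprr2h at -198. The windows of Sprr2k and Sprr2h were 80.6% identical in a global alignment, those of Sprr2k and Sprr1a 48.5%. TGANTCA stood in 9 of the 14 Sprr windows that the table holds, against 6.75% of all 32851 windows of the same length. The octamer stood in 7 Sprr windows, all of the Sprr2 branch, Sprr2k and Sprr2h among them, against 1.60% of all windows, and the TATA box in 10, against 12.4%. The Sprr windows include close copies of each other, such as those of Sprr2d and Sprr2e with 89.3% identity. They are therefore not independent counts beside the shares of all windows.

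The interferon-stimulated response element, written as GAAA, any 2 bases and GAAA and searched on both strands like the others, was in 0 of the 14 windows and in 2.98% of all, and the cyclic AMP response element TGACGTCA in 0 and 1.55%. The STAT motif TTCNNNGAA was in 1 of the 14, that of Sprr2a3, and in 7.02% of all. TGANTCA, TGACGTCA and TTCNNNGAA read the same on both strands and were counted once, and no match in the Sprr windows overlapped that of another motif. A match is a run of letters, not a measured binding site.

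**Figure D3:**
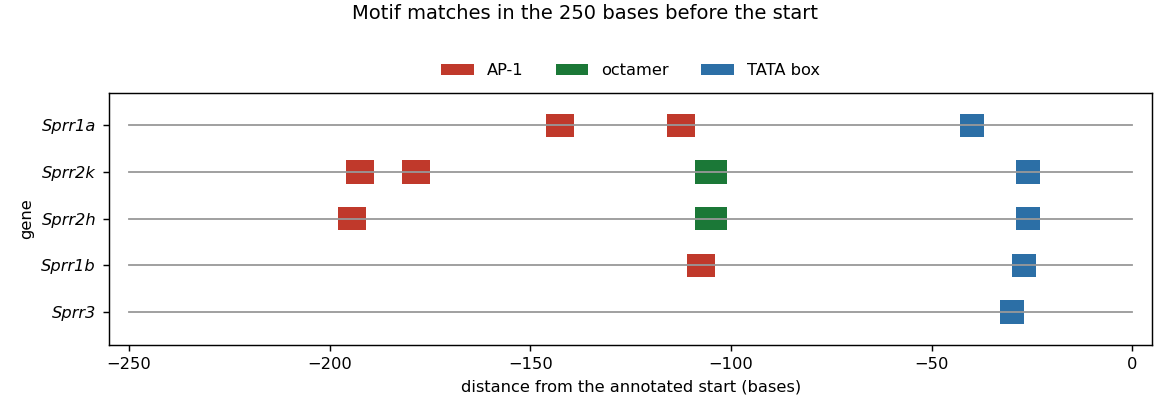
Position of motif matches in the 250 bases before the annotated start (horizontal axis, bases from the start) for the 5 genes (vertical axis), with AP-1 in red, the octamer in green and the TATA box in blue. Sprr1a and Sprr2k show 2 AP-1 matches, Sprr2h and Sprr1b 1 and Sprr3 none, and all 5 genes have a TATA box.

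Treatment with dsDNA asked whether the family answers an acute signal. The dsDNA contrast itself did not choose the genes. It uses the same mutant and vector arrays, however, so its tests are not independent of the choice. Sprr1a answered in hSTING cells, where it was 6.36-fold higher with dsDNA, at 9.54 against 6.87 in control cells. This was number 69 from the top among the 22180 differences of that pair of arrays. In N154S cells the difference was 0.58, in R284S cells 0.02 and in vector cells -0.18 on the log2 scale, so the line that began lowest among the STING lines moved most and the line that began highest hardly moved. After dsDNA the hSTING signal of 9.54 lay 0.36 above that of N154S control cells and 1.57 below that of R284S control cells.

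Averaged over the 4 lines, the dsDNA effect on Sprr1a was 0.77 (SE 0.43, 95% interval -0.252 to 1.80, limma adjusted p = 0.534), higher in 3 of 4 lines. Without the hSTING pair of arrays it was 0.14. The effect in the STING lines exceeded that in vector cells by 1.27 (SE 0.94, limma adjusted p = 0.994), or by 0.48 without the hSTING pair. That in the mutants minus that in hSTING and vector cells was -0.945 (SE 0.84, limma adjusted p = 0.997), and it turned to 0.48 without the hSTING pair and was -2.37 without the vector pair. None of these passed, and with 1 array per cell the jump in hSTING cells has no replicate check.

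Sprr2k was lower with dsDNA in 4 of 4 lines. The differences were -0.26 in R284S, -0.51 in N154S, -0.85 in hSTING and -0.60 in vector cells, with those of the mutants cut short by dim signals, so that their bounds were 1.05-fold each. The mean effect was -0.555 (SE 0.11, 95% interval -0.821 to -0.289), with an unadjusted p of 0.00166 and an adjusted p of 0.448 in limma, so it did not pass. Leaving out each line in turn gave -0.653 to -0.457. The exact two-sided permutation test over the 16 sign patterns of 4 pairs gave p = 0.125, the smallest it can give. Among all genes, 10.4% were lower with dsDNA in all 4 lines, and 76 genes, or 0.343%, had a mean effect at or below that of Sprr2k. The effect in the STING lines minus that in vector cells was 0.06 (SE 0.28, limma adjusted p = 0.996), and -0.08 without the R284S pair.

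Sprr2h was higher with dsDNA in 4 of 4 lines, by 1.09 in R284S, 0.06 in N154S, 0.08 in hSTING and 0.54 in vector cells, as were 9.82% of all genes. Both signals were dim in N154S, hSTING and vector cells, so the signs there carry little. Its mean effect was 0.44 (SE 0.18, limma adjusted p = 0.459), and 0.227 without the R284S pair. In R284S it was the 1 member past 2-fold, where 0.0271% of all genes were higher and 0.0406% lower, but the control signal was dim and the bound was 1.10-fold. In hSTING cells 1 of 5 members, Sprr1a, was past 2-fold higher, against 2.01% of all genes, and 0 of 5 lower, against 0.5%. In N154S cells 0 of 5 were, against 0.379% higher and 0.108% lower, and in vector cells 0 of 5, against 0.149% and 0.0361%. Sprr1b and Sprr3, dim on all arrays, had mean effects of 0.00 and 0.01.

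Over all genes, 0 passed at an adjusted p of 0.05 in each of the 3 limma fits (0% higher and 0% lower). At an unadjusted p under 0.05 in limma there were 2395 genes for the mean dsDNA effect, 798 for the STING lines against vector cells and 720 for the mutants against the other lines. If no gene moved, a share of 0.05 of the 22180 genes would be expected there. The counts of 798 and 720 lie below that share, and 2395 lies above it. The residual of the fits is the unevenness of the dsDNA effect between lines together with noise, on 3 or 2 degrees of freedom, so a missed threshold does not show that a gene stayed the same.

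**Figure D4:**
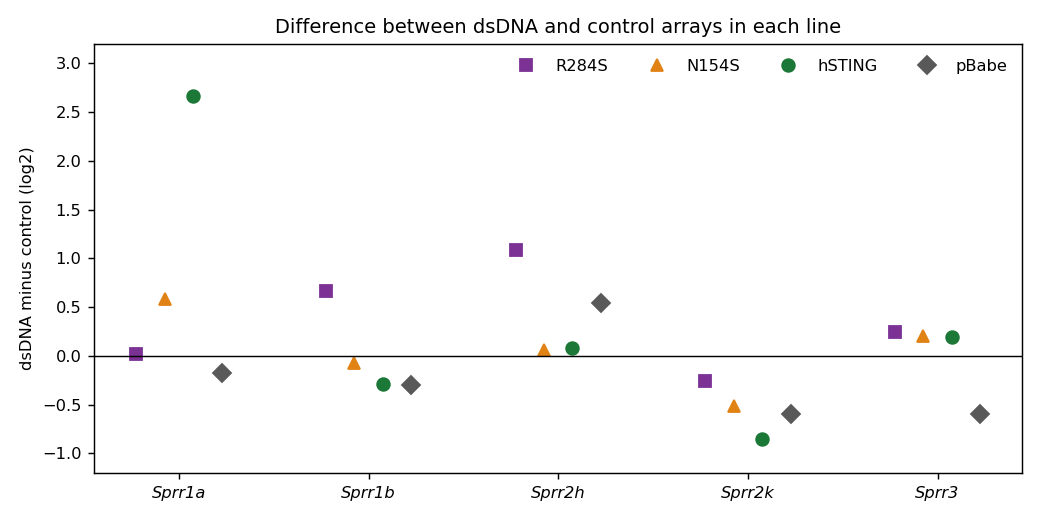
Difference between the dsDNA and the control array of each line (vertical axis, log2) for the 5 genes (horizontal axis), 1 point per line, as squares for R284S, triangles for N154S, circles for hSTING and diamonds for vector cells. Sprr1a stands out in hSTING cells at 2.67, and Sprr2k lies below 0 in all 4 lines, at -0.85 to -0.26.

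The genes whose signals ran most like those of Sprr1a over the 8 arrays were sought among the 2197 other genes that ranged over at least 1 on the log2 scale. They were Asb5, which encodes a subunit of a ubiquitin ligase, with a Pearson's r of 0.990, the glutathione transferase gene Gsto2 with 0.990, the solute carrier gene Slc35f1 with 0.988, the lysosomal membrane gene Laptm4b with 0.984 and the oxidative stress protection gene Oxr1 with 0.981. Asb5 read 6.95 with dsDNA and 7.33 in control R284S cells, 6.57 and 6.0 in N154S, 6.22 and 4.38 in hSTING, and 4.42 and 4.29 in vector cells. Asb5 was picked for its likeness to Sprr1a, so its jump in hSTING cells with dsDNA and its high level in both mutants follow from that choice.

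For Sprr2k the most alike genes were the glycosyltransferase gene Galnt16 with 0.990, Heg1, which encodes a membrane protein known from blood vessel development, with 0.989, the cell cycle phosphatase gene Cdkn3 with 0.989, the sorting receptor gene Sorcs2 with 0.987 and the mitotic spindle gene Knstrn with 0.982. Galnt16 read 4.32 and 4.40 in R284S, 4.21 and 4.62 in N154S, 5.43 and 5.70 in hSTING, and 6.11 and 6.57 in vector cells, dsDNA array first. Between Sprr1a and Sprr2k themselves r was -0.906, but they were chosen for opposite shifts on these same arrays, so nothing is read from it. All these correlations rest on 8 points from 4 lines, so they describe the arrays and carry no test.

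Sprr1b and Sprr2h, with ranges just over 1 and dim signals, had lower best values. The 5 genes most like Sprr1b were Snord43, Olfr1282, Gm2046, Mup5 and Cyp2d9, with r of 0.804 to 0.842, and those most like Sprr2h were Gm38396, Vmn1r31, Olfr286, AI987944 and Sh2d1b1, with 0.870 to 0.960. Sprr3 did not range widely enough to be compared. Against Sprr1a, r was -0.479 for Sprr1b and 0.461 for Sprr2h.

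**Figure D5:**
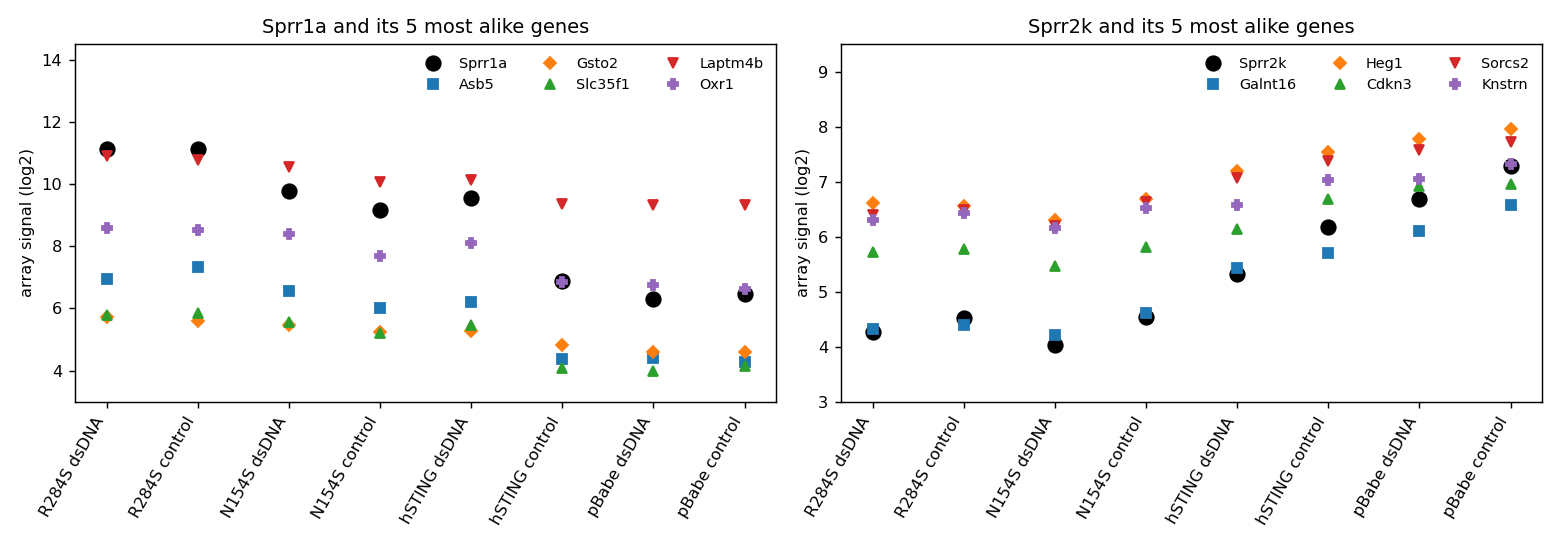
Log2 array signal (vertical axis) on the 8 arrays (horizontal axis) of Sprr1a with its 5 most alike genes (left) and of Sprr2k with its 5 (right), 1 marker per gene and array. The left set is high in R284S, N154S and dsDNA-treated hSTING cells, as Asb5 at 7.33 in R284S and 4.29 in vector control cells, and the right set is high in vector cells, as Galnt16 at 4.40 and 6.57. Both sets were picked for their likeness to the member on these arrays, so the shared pattern follows from the choice.

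Among 39 measured genes of the cornified envelope and its enzymes, involucrin (Ivl), a scaffold of the envelope and the neighbour of the Sprr cluster, was 2-fold or more higher in both mutants against vector control cells, and it was the 1 such gene in each. That is 1 of 39, against 1.15% of all genes for R284S and 1.01% for N154S. Ivl read 5.70 with dsDNA and 5.68 in control R284S cells, 6.39 and 6.83 in N154S, 5.11 and 4.83 in hSTING, and 4.12 and 4.54 in vector cells. It was thus highest in N154S, unlike Sprr1a. The list's median difference was 0.07 in R284S and 0.12 in N154S, beside 0.00 over all genes, and 26 of the 39 genes were dim on all arrays. The crosslinking enzyme gene Tgm1 read 4.43 and 4.45 in R284S and vector control cells, and Lor, for loricrin, 4.24 and 3.90.

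Of the S100 genes of the complex, 0 of 14 were past 2-fold higher in either mutant, against 1.15% of all genes for R284S and 1.01% for N154S. With dim genes counted too it was 1 of 14 in each mutant. The list had medians of 0.03 in R284S and 0.17 in N154S. S100a6, a calcium-binding protein gene that is bright in these fibroblasts, read between 11.55 and 11.70 on the 8 arrays. S100a8, for a subunit of calprotectin, differed from vector control cells by 1.41 in R284S and 1.52 in N154S but was dim in all of these control cells.

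Among 21 AP-1 and epidermal regulators 0 were past 2-fold in either mutant against vector control cells, where the shares of all genes were 1.15% higher and 0.721% lower for R284S and 1.01% and 0.406% for N154S. The list had medians of -0.02 in R284S and -0.05 in N154S. Among control cells, Jun had a signal of 9.07 in the R284S line, 9.12 in the N154S line and 9.24 in the vector line. With dsDNA the stress factor Atf3 was the 1 regulator past 2-fold in hSTING cells, against 2.01% of all genes, at 9.10 against 5.98 in control cells, and in N154S cells, against 0.379%, at 7.63 against 6.34. In R284S cells Atf3 read 6.63 with dsDNA and 6.53 in control cells. Among control cells, Atf3 differed from the vector line by 0.53 in R284S, 0.34 in N154S and -0.02 in hSTING cells. The part of Atf3 in the Sprr1a signal was not tested.

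Of 17 genes of gp130 cytokines and the STAT3 pathway, 0 were past 2-fold in the mutant control cells, against the same shares of all genes, with medians of 0.04 in R284S and 0.05 in N154S. In hSTING cells 5 of 17 were 2-fold or more higher with dsDNA, against 2.01% of all genes, with a median of 0.35 beside -0.01. They were the cytokine genes Il6 at 3.02, Lif at 2.38 and Il11 at 1.14, the kinase gene Jak2 at 1.52 and the kinase gene Pim1, a STAT target, at 1.57, of which Jak2 and Pim1 were named after their values were seen. In N154S cells 2 of 17 were, Il6 at 1.35 and Lif at 1.26, against 0.379% of all genes. In R284S cells, 0 of 17 were, and the differences were 0.05 for Il6, 0.26 for Lif, 0.17 for Il11, 0.26 for Jak2 and 0.06 for Pim1. Il6 read 8.29 in R284S, 8.36 in N154S, 7.48 in hSTING and 7.41 in vector control cells.

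Of 16 genes known to accompany Sprr1a in injured neurons, the neuronal tubulin gene Tubb3 was 2-fold or more lower in both mutants, with control signals of 6.93 in the R284S line, 7.24 in the N154S line and 8.93 in the vector line, and 0 were higher. The shares of all genes that were lower were 0.721% for R284S and 0.406% for N154S. The list's medians were 0.04 in R284S and 0.10 in N154S. With dsDNA, 2 of 16 were higher in hSTING cells, against 2.01% of all genes, and 2 in N154S cells, against 0.379%. They were Atf3, which is also in the list of regulators, at 3.12 in hSTING and 1.29 in N154S, and the neuropeptide gene Nts at 2.21 and 1.31, with dim control signals, which was named after its values were seen. Tubb3 was the 1 lower gene in both, at -1.53 in hSTING and -1.0 in N154S, against 0.5% and 0.108% of all genes. Gap43, a growth cone protein gene, had a signal of 6.56 in R284S control cells, 6.77 in N154S control cells and 6.53 in vector control cells. In the 3 limma fits of dsDNA effects 0 genes of any list passed.

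Since Sprr1a is known from epithelia, markers of other cells were read beside it; in such bulk samples, fewer cells of a type and less RNA per cell cannot be told apart. Of 11 measured keratinocyte markers 8 were dim on all arrays, the basal keratin Krt14 and the regulator Trp63 among them. Their summed signal was 7.53 and 7.61 on the log2 scale in R284S, 7.31 and 7.21 in N154S, 7.20 and 7.29 in hSTING, and 7.29 and 7.32 in vector cells, dsDNA array first. The adhesion gene Perp was the 1 of 11 past 2-fold, against 1.15% of all genes, higher by 1.17 in R284S than in vector control cells. Of 10 markers of simple epithelium, 2 were past that fold, against the same 1.15%. The claudin genes Cldn3 and Cldn4 were past 2-fold higher in R284S than in vector control cells, Cldn3 by 1.11 and Cldn4 by 1.71, a difference whose vector signal of 3.79 was dim, while Epcam read between 2.24 and 2.58 on all arrays. That list's summed signal was 8.24 and 8.16 in R284S, 7.91 and 7.92 in N154S, 7.72 and 7.68 in hSTING, and 7.63 and 7.62 in vector cells. The part of these genes in the Sprr1a signal was not tested.

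Of 13 fibroblast markers, 12 were at or above the array median on all 8 arrays, as the label has it. Their summed signal was 14.19 and 14.21 in R284S, 14.17 and 14.32 in N154S, 14.32 and 14.44 in hSTING, and 14.54 and 14.54 in vector cells. In R284S control cells 5 of 13 were 2-fold or more lower than in vector control cells, against 0.721% of all genes, and in N154S 1 was, against 0.406%, the collagen gene Col3a1, which was also among the 5, at -2.44 in R284S and -1.36 in N154S. Of 10 macrophage markers, 5 were dim on all arrays. Ptprc and Adgre1, the common leukocyte and macrophage antigens, were among them and read at most 2.67 and 2.93. The markers Cd68 and Cd14 were at or above the array median on all 8 arrays. That list's summed signal was 8.07 and 7.80 in R284S, 7.99 and 7.98 in N154S, 8.21 and 7.58 in hSTING, and 7.70 and 7.56 in vector cells. Mpeg1, an interferon-inducible gene, was the list's 1 member past 2-fold in N154S control cells, against 1.01% of all genes. It read 5.44 there and a dim 2.56 in vector control cells. In hSTING cells it was also the list's 1 gene 2-fold or more higher with dsDNA, against 2.01% of all genes. It read 6.54 there with dsDNA and a dim 2.88 in control cells. The part of these shifts in the Sprr signals was not tested.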

How the data were processed

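Total RNA of 8 samples was labelled with GeneChip WT PLUS reagents, per the labels' protocols, and Affymetrix Expression Console 1.3.1.187 was used, per the submitters' processing notes. How the probes were summarised was not given in the sources used here. Log2 signals of 41345 probe sets were deposited by the authors. The array medians of these deposited values were 3.79 to 3.85. GEO's platform annotation named the probe sets, of which 23521 had 1 symbol, 1814 several and 16010 were not listed. For 1082 genes with several probe sets the one with the highest mean was used.

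A log2 difference of 2 arrays has no test. Log2 differences and counts past 2-fold used the signals as measured. Only for the folds given as bounds was a dim signal (below the array's median over named genes) replaced by that median. The dsDNA effect was fitted with limma 3.58.1 in R 4.3.3 over all 22180 genes, with line and treatment as terms. The fit used eBayes and Benjamini-Hochberg adjustment at 0.05. Its code was checked on simulated data with normal noise and effects of equal size in the lines concerned. The effects here were uneven, so that check does not bear on them. Fits with an interaction term compared the effect between lines. With 1 array per line and treatment, the p-values rest on the spread between lines, and the number of arrays limits the precision. Motif searches used Python 3.11.15 and alignments Biopython 1.88.

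The members and the lists of genes were chosen with earlier results of these data known. The rule for names took the members, the other Sprr genes, list genes past 2-fold in both mutants or past a fit, up to 4 that define a list, and the 5 most alike genes per member. Alternatives were a filter on dim genes, trended robust variances, quantile normalization, the mean of probe sets, leaving out each line, and no term for the line.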

Additional observations from a re-analysis of the deposited data

Results flagged for a closer look

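For 2 of the 5 members, Sprr1a and Sprr3, the difference with dsDNA had the opposite sign in the 3 STING lines and in vector cells. The share of all genes with such signs was not counted, so nothing is read from the number of members. Sprr1a was higher with dsDNA by 0.02 in R284S, 0.58 in N154S and 2.67 in hSTING cells, and differed by -0.18 in vector cells. The fitted difference was 1.27 (limma adjusted p = 0.994, range over the alternatives 0.887 to 0.999). Sprr3 differed by 0.25, 0.20 and 0.19 in these lines and by -0.60 in vector cells, a fitted difference of 0.81 with an unadjusted p of 0.00695 and a limma adjusted p of 0.994. Sprr3 was dim on all 8 arrays, and its vector control signal of 2.50 was the highest of the 8. Of the other Sprr genes, Sprr2e and Sprr2f showed the same signs, with fitted differences of 0.53 and 0.58, unadjusted p of 0.0433 and 0.0332 and a limma adjusted p of 0.994 for both, and their vector signals were dim too. Sprr2d, dim on all 8 arrays, differed with dsDNA by -0.59 in R284S, -0.27 in N154S, 0.76 in hSTING and 0.61 in vector cells. Its effect in the mutants minus that in the other lines was -1.115, with an unadjusted p of 0.00151 and an adjusted p of 0.997 in limma. No group held enough arrays to look for a single array far from its group.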

How the results depend on the processing

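Each member had 1 probe set, so averaging probe sets left its values as they were. For Sprr1a and Sprr2k the mean dsDNA effect kept its sign and stayed short of the threshold under all alternatives run, at 0.14 to 1.09 and -0.653 to -0.457 when each line was left out. Adjusted p lay between 0.414 and 0.889 for Sprr1a and between 0.229 and 0.866 for Sprr2k. The effect in the STING lines minus that in vector cells was 0.48 to 1.805 for Sprr1a and -0.08 to 0.215 for Sprr2k when lines were left out, and that in the mutants minus the other lines -2.37 to 0.48 and 0.215 to 0.465. The number of genes passing for the mean dsDNA effect, 0, became 4 with a trend and robust variances and 0 to 1 when lines were left out, the 1 being without the vector pair.

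Signs turned for effects near 0. The mean effect on Sprr1b of 0.00 became -0.013 with quantile normalization and -0.22 to 0.103 with lines left out, and that on Sprr3 became -0.032 and -0.07 to 0.213 (-0.053 without N154S, -0.05 without hSTING). For Sprr2h the STING lines minus vector cells, -0.13, ran over -0.47 to 0.045 (0.035 without hSTING), and the mutants minus the other lines, 0.27, over -0.25 to 0.78. The Sprr1a difference of hSTING from vector, 1.815 over both treatments, was 3.24 on dsDNA and 0.39 on control arrays. Without the filter on the brighter array, 1 S100 gene was past 2-fold in each mutant in place of 0, and 2 injury genes in R284S in place of 1. The mean dsDNA effect was fitted on pairs of arrays of the same line, and without that term no member passed either, with adjusted p of 0.889 for Sprr1a and 0.866 for Sprr2k. The labels carry no replicate numbers for a further block. The causes of these changes were not tested.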

Other observations

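Probe sets shared by several Sprr genes entered no comparison. A pair of probe sets for Sprr2a1, Sprr2a2 and Sprr2a3 held identical values on all 8 arrays, at 4.64 with dsDNA and 4.28 in control R284S cells, 4.32 and 4.43 in N154S, 3.88 and 3.90 in hSTING, and 4.17 and 4.04 in vector cells. A probe set shared by these genes and Sprr2b read between 5.08 and 5.65. Its highest values were those of R284S cells, 5.65 with dsDNA and 5.53 in control cells. Another probe set of the Sprr2a genes read between 2.91 and 3.36, and that shared by Sprr2i, Sprr2f and Sprr2e between 1.16 and 1.68.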
